A study of Mus musculus with 24 samples.

Results

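The 3 arrays of adult liver were compared with the 3 arrays of adult kidney, 6 of the 24 arrays of a study of long noncoding RNAs (lncRNAs) and mRNAs in 5 mouse tissues and 3 cell lines. The 6 arrays were chosen by their tissue label. Both organs came from 8-week-old male ICR mice, an outbred strain, with no treatment or allele named for either organ. RNA was taken from frozen tissue, so each array averages over all cell types of the organ. The methods describe the 3 arrays of an organ as biological replicates. Each array carries 60804 probes for transcripts, and its levels are the log2 of the background-subtracted fluorescence after subtraction of the 75th percentile of the array, so that a level of 0 is that percentile.

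Liver and kidney are both epithelial organs of metabolism and clearance, with different tasks. Hepatocytes secrete plasma proteins and apolipoproteins, make bile acids and oxidise drugs with cytochromes P450, and in male mice they secrete the major urinary proteins, small lipocalins that bind pheromones and leave the body through the kidney. Kidney tubules reclaim salt, water, lactate and sugars from the filtrate through transporters whose identity changes along the nephron. Many lncRNAs on the array are alternative noncoding transcripts of such coding genes or pseudogenes of them, and a probe for one of them need not report the mRNA.

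The arrays carry no gene names. A total of 3456 probes (5.68%) could be named through the study's annotation, of which 47 belong to the study's list of liver-specific lncRNAs and 102 to its list of kidney-specific lncRNAs. These 2 lists were chosen by the study on the same arrays, so their members' direction is a description and no independent evidence. All probes of the function groups below are members of these lists, so the same choice favours their calls and their separated arrays. Differences below are liver minus kidney on the log2 scale, fitted with limma over all probes of the 6 arrays, and a probe was called when its adjusted p was 0.05 or less, its fold at least 5 and its signal well above background on all 3 arrays of the higher organ. Fewer cells of a type and less RNA per cell cannot be told apart in whole tissue.

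Before the results, 1 array stood apart. Negative control spots reached a 95th percentile of 13.6 on Liver replicate 1, against 3.58 to 3.95 on the other 5, and the dimmest signal counted as well above background was 25.3 against 12.5 to 13.3. It shares slide 1 with Kidney replicate 1 but not its scan, and the comparison was repeated without it. The 75th percentile lay at a signal of 30.7 to 49.8 in liver and 77.6 to 98.3 in kidney. After scaling by it, the 28582 probes detected on none of the 6 arrays read 1.40 higher in liver at the median, while the 15469 probes detected in both organs differed by 0.08. A positive difference of a probe that liver did not detect is therefore not read below. Of 8 marker lists for cell types, holding 52 genes, 16 could be identified and no list reached the 80% asked of a check, so the labels were not checked in this way.

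Kidney had more detected transcripts than liver. Detection, taken as a signal flagged well above background on each of the 3 arrays of an organ, was reached by 24044 probes in kidney and 16277 in liver, of which 15469 were shared, 8575 were in kidney alone and 808 in liver alone. The size of the gap depended on the level asked for. With 1 common level for all 6 arrays, 3296 probes were in kidney alone and 1894 in liver alone. Arrays of the same organ correlated at 0.979 to 0.982 in kidney and 0.954 to 0.975 in liver, and arrays of different organs at 0.844 to 0.876 (over all probes, which are not independent).

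Of all probes, 1571 (2.58%) were called higher in liver and 2068 (3.4%) higher in kidney. The calls in liver were more often for transcripts that kidney also showed, since 836 of them were detected on all 3 kidney arrays and 496 on none. Those in kidney were more often for transcripts near background in liver, 458 detected on all 3 liver arrays and 1298 on none. Detection as a whole ran the same way. Of the 16277 probes detected in liver, 15469 were detected in kidney, as were 15469 of the 24044 kidney probes in liver. The contrast between the calls cannot be told apart from this difference in detection. Names were available for 81 of the liver calls and 158 of the kidney calls. The largest difference of all was that of an unnamed probe, ASMM10P031319, at 11.74, 11.78 and 11.56 in liver and well above background on no kidney array, at least 21600-fold higher, and the unnamed ASMM10P051163 followed. Toward kidney the largest were the unnamed ASMM10P039764, at 10.59, 10.88 and 10.66 in kidney and at least 4090-fold higher there, and ASMM10P042768.

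**Figure D1:**
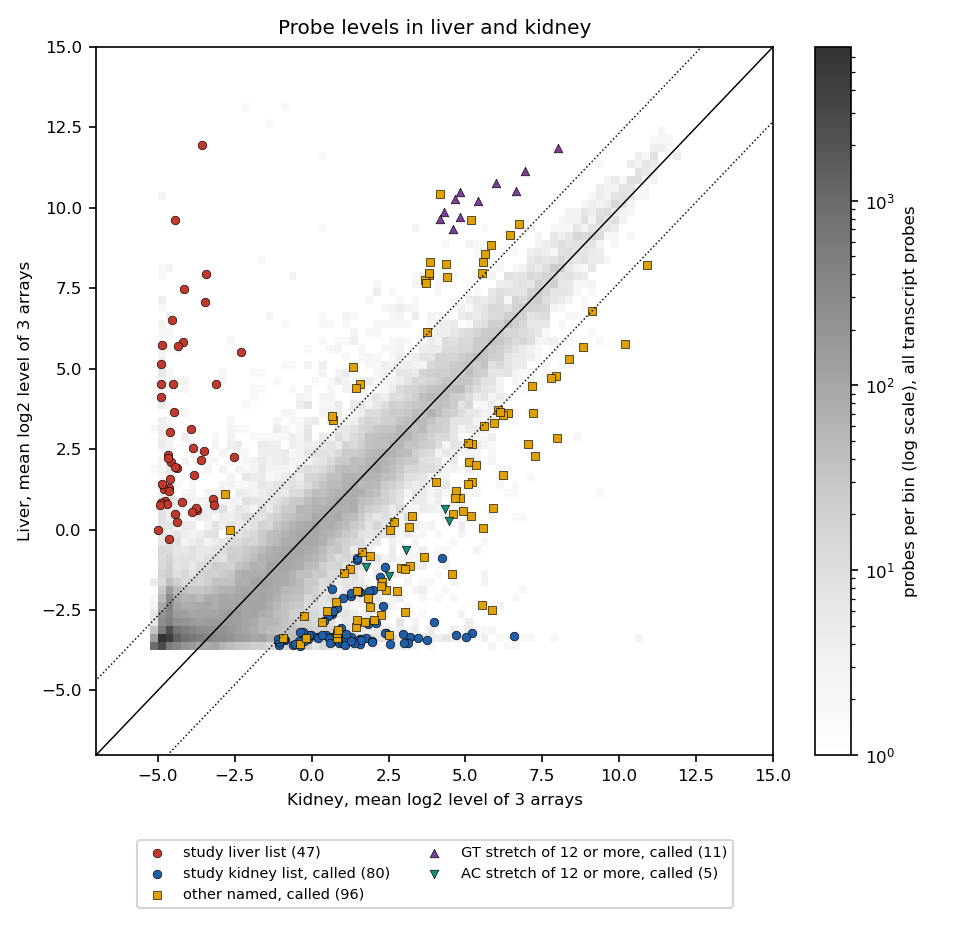
Mean log2 level of each probe in kidney (x axis) and liver (y axis), 3 arrays each, with all 60804 probes in grey on a log colour scale and the named probes that were called as coloured points; the solid line marks equal levels and the dotted lines a 5-fold difference. Members of the study's liver list (47) stand mostly near the kidney background, and those of the kidney list (80 called) mostly near the liver background. Some lie above it, such as Gm16548 (-2.3 in kidney) and AK143933 (-0.89 in liver). The probes with a GT stretch (11 called) lie at liver levels above 9 with kidney levels above 4.

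The major urinary protein transcripts showed the widest difference among named probes. All 5 members of the family on the study's liver list were called higher in liver, with a median difference of 11.4 against 0.93 over all probes. Of all probes 2.58% were called higher in liver, and the choice of the list favours these 5. The pseudogene transcript Mup-ps18 (GRCm38 chromosome 4, 61874703 to 61883317) read 11.29, 12.56 and 12.03 in liver and -5.12, -2.04 and -3.58 in kidney, where 1 of the 3 arrays was well above background. Its 2 groups of arrays lie far apart, with a difference of 15.54 ± 0.71 (SE, adjusted p = 2.41e-06). Mup-ps12 (chromosome 4, 61440589 to 61538481) read 9.42, 10.26 and 9.18 in liver and was detected on no kidney array, which makes it at least 5130-fold higher in liver. The transcripts of Mup11, Mup-ps15 and Mup2, from the same gene cluster, followed at liver means of 7.95, 5.71 and 5.15 and were at least 1620-fold, 341-fold and 232-fold higher. The copies of this family are near-identical, so a probe can also take up the RNA of its neighbours and the level of any 1 copy is uncertain.

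Transcripts of enzymes for drugs, steroids and bile acids formed the next group, also from the liver list, with a median difference of 8.83. All 8 were called higher in liver, as were 2.58% of all probes, which the choice of the list favours. The pseudogene transcript Cyp2d37-ps read 5.89, 7.03 and 6.60 in liver and -4.82, -4.56 and -4.24 in kidney, at least 593-fold higher. Cyp2c40 (7.34, 6.57 and 7.29 in liver) and Cyp2c70, whose enzyme makes muricholic bile acids (5.77, 5.34 and 6.34), were at least 875-fold and 368-fold higher. The transcript of Nr1i3, the xenobiotic receptor CAR that controls such enzymes, read 5.20, 6.69 and 5.29 in liver and lay at background on each kidney array, with a difference of 10.60 ± 0.41 (SE, adjusted p = 9.47e-07). Cyp2d13, Akr1c6, the paraoxonase gene Pon1 and the carboxylesterase gene Ces3b had liver means of 4.53, 1.91, 1.58 and 0.24 and were above kidney by at least 151-fold, 24.5-fold, 19.6-fold and 7.71-fold. The Cyp2c and Cyp2d genes are multigene families too, and signal may be shared between their copies.

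The 3 transcripts of lipoprotein and amino acid metabolism, again from the liver list, were called as well, against 2.58% of all probes. With another background correction (normexp with an offset of 50) none of the 3 was called. This offset exceeds the 75th percentile signal of each liver array, so it shrinks the fold of dim probes. Those of Apoa1, the main protein of high-density lipoprotein, read 1.15, 1.72 and 0.70 in liver, and those of Tdo2, which opens the tryptophan ring, 0.97, 1.99 and 2.18. Gls2, the liver-type glutaminase, read 1.23, 0.89 and 0.54. None of these was detected on a kidney array, and they were at least 14.9-fold, 21.4-fold and 12.1-fold higher in liver.

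The last liver group holds transcripts of genes known from sinusoidal endothelium and immune cells. All 5 of its probes, taken from the liver list, were called. Of all probes 2.58% were called higher in liver, and the choice of the list favours these 5. With normexp 3 of the 5 were called. The transcript of Clec4g, a lectin of liver sinusoidal endothelium, read 4.60, 4.88 and 4.04 in liver and was undetected in kidney, at least 149-fold higher. Both probes of Cd1d2, a copy of the gene for the protein that presents lipids to natural killer T cells, were higher in liver, with differences of 7.62 ± 0.30 and 6.38 ± 0.27 (SE). The transcript of Cyth4, expressed in leukocytes, was at least 37.5-fold higher. Lymphocyte genes went both ways: a transcript of Ltb, a cytokine of lymphocytes, was at 8.23, 7.76 and 7.73 in liver and 3.95, 3.80 and 3.69 in kidney, while the Ptpn22 transcript was at 2.33, 2.25 and 0.75 in kidney and undetected in liver. The globin pseudogene Hba-ps4, the single red cell marker identified, overlapped between the organs (11.76, 11.61 and 10.94 in liver, 10.00, 9.92 and 11.31 in kidney, adjusted p = 0.0689), and the part of blood in these results was not tested.

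**Figure D2:**
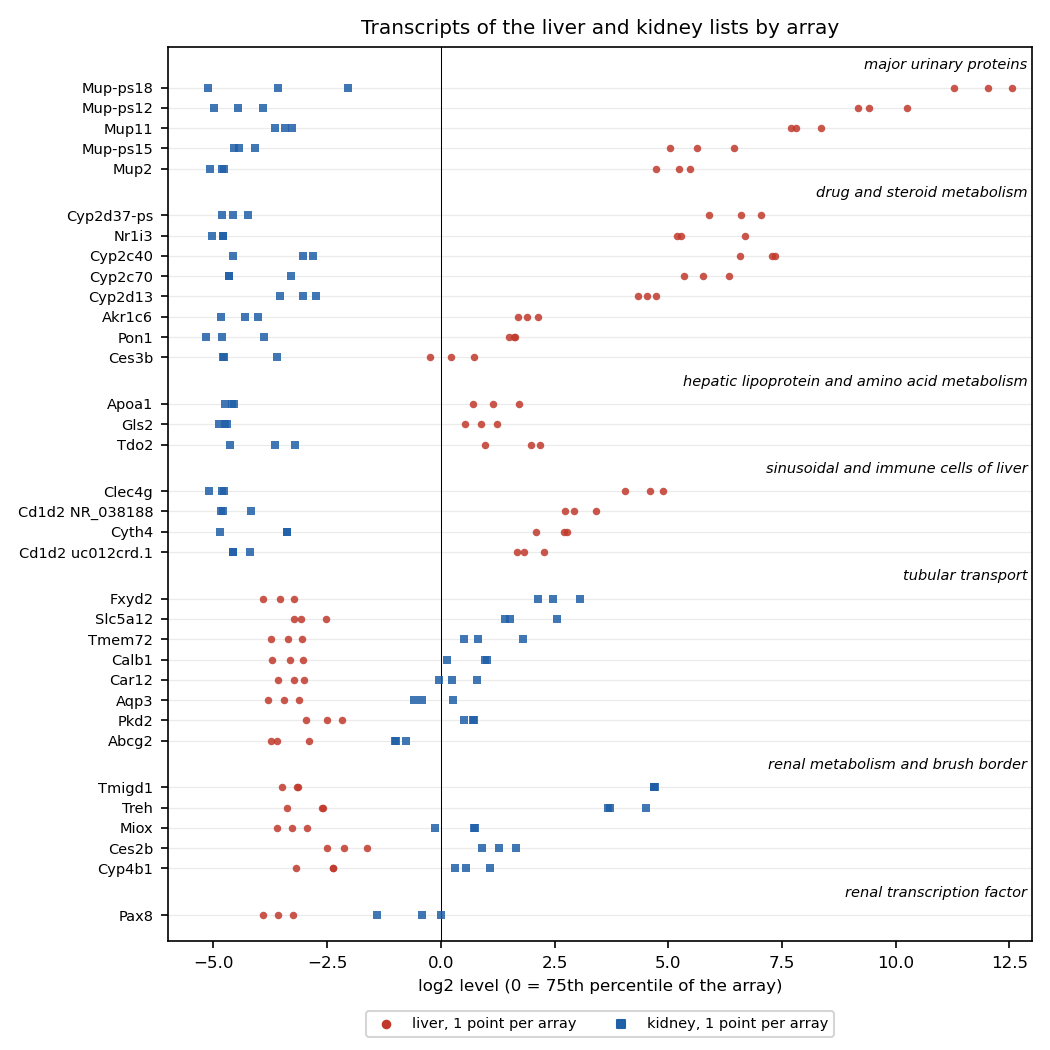
Log2 level on each array (x axis; red circles liver, blue squares kidney, 3 points each) of 34 of the 35 probes of the function groups, 1 row per probe. In every row the 3 arrays of the higher organ lie right of the 3 of the other, with the points of liver reaching 12.56 and those of kidney 4.70. All rows are members of the study's liver and kidney lists, which were chosen on these arrays.

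Over the whole liver list of 47 probes, all were called, against 2.58% of all probes, and none was detected on all 3 kidney arrays. The 3 liver arrays lay above the 3 kidney arrays for all 47, as for 49.9% of all probes, which the choice of the list on these arrays favours. Their median difference was 6.30 and their liver means ran from -0.30 to 11.96. Kidney had no array well above background for 43 of them, and for these the lower bounds ran from 5.32-fold to 5130-fold with a median of 27.8-fold. Of the 47 probes, 36 matched a RefSeq gene of GRCm38.p6 by symbol, 20 of them at a protein-coding gene, 8 at a pseudogene and 8 at a lncRNA gene. Besides the families above, the 10 largest differences included the pseudogene Gm11212 (chromosome 4, 63350373 to 63353957), which read 6.85, 8.16 and 7.44 in liver and was at least 1170-fold higher. All 47 were called again without Liver replicate 1, and on slide 1 alone, with 1 array of each organ, all 47 were higher in liver with a median difference of 6.12. Both use arrays on which the list was chosen, so neither is an independent repeat.

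On the kidney side, the 8 probes of the tubular transport group come from the kidney list and had a median difference of -3.83. All 8 were called higher in kidney, as were 3.4% of all probes, which the choice of the list favours. With normexp 1 of the 8 was called and the median was -1.13. The transcript of Fxyd2, the gamma subunit of the sodium pump, read 2.13, 2.46 and 3.07 in kidney and -3.22, -3.54 and -3.90 in liver, at least 14.3-fold higher in kidney. Slc5a12, the low-affinity sodium-lactate cotransporter of the proximal tubule, read 1.41, 1.52 and 2.55 in kidney and was at least 8.68-fold higher. The difference of Tmem72 was -4.43 ± 0.38 and that of Calb1, the calcium-binding protein of the distal tubule, -4.06 ± 0.33 (SE). Car12 (a carbonic anhydrase), Aqp3 (a water channel of the collecting duct), Pkd2 (a gene of polycystic kidney disease) and Abcg2 (a urate exporter) had fitted differences from -3.61 to -2.50. None was detected on a liver array, and since the liver background limits the fold, the measured bounds for these 4 were 3.09-fold, 2.06-fold, 3.84-fold and 1.30-fold.

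All 5 probes of renal metabolism and the brush border, from the kidney list too, were called higher in kidney. Of all probes 3.4% were, and the choice of the list favours these 5. With normexp 2 of the 5 were called. The Tmigd1 transcript, from a gene of the epithelial brush border (chromosome 11, 76891120 to 76916587), read 4.69, 4.70 and 4.69 in kidney and was at least 63.2-fold higher than in liver. Treh, the brush border enzyme trehalase, read 3.67, 4.52 and 3.71 and was at least 38.3-fold higher. Miox, which starts the breakdown of inositol, the carboxylesterase Ces2b and the cytochrome P450 Cyp4b1 were called with differences of -3.73, -3.36 and -3.29. The transcript of Pax8, a transcription factor of nephron development, was at 0.00, -1.40 and -0.41 in kidney and undetected in liver, and its measured bound was 1.61-fold.

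Of the 10 largest differences of the kidney list, 8 belonged to members in no function group. The Gm853 transcript (chromosome 4, 130209023 to 130222428) read 7.21, 7.15 and 5.37 in kidney and -3.02, -3.24 and -3.62 in liver, at least 233-fold higher in kidney, and Kidney replicate 3 stood below the other arrays. The lncRNA AI314278 (chromosome 7, 89426306 to 89432077) read 5.18, 5.27 and 5.17 and was at least 90.2-fold higher, with a difference of -8.43 ± 0.26 (SE, adjusted p = 3.31e-07). AK136601 read 5.24, 5.18 and 4.63. Gm12678, Gm15563, AK002255, Gm15823 and AK143795 completed the 10 largest, with bounds from 19.4-fold to 32.8-fold. Both Gm853 and AI314278 were undetected in brain, heart and testis as well, and absence from the other tissues was a condition of the study's kidney list.

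Of the 102 probes of the kidney list, 80 were called, against 3.4% of all probes, and the choice of the list favours these calls. The other 22 were all in the same direction and 21 of them had an adjusted p of 0.05 or less with a fold under 5. The list's median difference was -3.33, its kidney means ran from -1.41 to 6.58, and the 3 kidney arrays lay above the 3 liver arrays for 100 of the 102, as for 13.8% of all probes, which the choice of this list favours too. Liver detected 86 of them on no array and none on all 3. The bounds that could be measured for 84 probes had a median of 3.79-fold, and 33 reached 5-fold. Fitted differences of this list therefore rest in part on liver values at background. With another background correction (normexp), 15 of the 102 and 24 of the 47 were called. Of the function groups, 13 of the 21 liver probes and 3 of the 14 kidney probes were then called. Without Liver replicate 1, 84 of the kidney list were called, and on slide 1 alone all 102 were higher in kidney. These arrays too served to choose the list, so neither count is an independent repeat.

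The study's lists for brain, heart and testis were chosen on these arrays for absence from the other tissues, so they could hardly give a call here. None of the 586 probes of the study's brain list, the 103 of its heart list and the 164 of its testis list was detected on all 3 arrays of either organ.

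Outside the liver and kidney lists, 34 of 3307 named probes were called higher in liver and 78 higher in kidney. Over all probes the shares were 2.58% and 3.4%. The 3307 include the brain, heart and testis lists. All 34 and all 78 came from annotation of lncRNAs detected in brain or F9 cells, and every one of the 112 was detected on all 3 brain arrays. Kidney was the highest of the 5 tissues for 24 of its 78, and brain for 36. Liver was the highest for 30 of its 34.

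The largest kidney difference outside the lists belonged to a transcript of Ldhb, the heart-type subunit of lactate dehydrogenase (ENSMUST00000130817, exonic sense, chromosome 6, 142490251 to 142507921). It read 5.20, 6.12 and 6.26 in kidney and -3.02, -1.17 and -3.28 in liver, where no array was well above background, so that kidney was at least 138-fold higher (difference -8.35 ± 0.57, SE, adjusted p = 2.14e-05). Its means in heart, brain and testis were 5.84, 4.35 and 1.32. A transcript of Ldha, the muscle-type subunit, was at 8.00 in liver and 7.92 in kidney, a difference of 0.08 ± 0.30. BC038906, a transcript in the gene Cds1 of phospholipid synthesis, read 5.35, 5.82 and 5.43 in kidney and was detected on 1 liver array (difference -7.90 ± 0.47). Gm8096 and AK181950, which lies in the gene Shisa4, differed by -5.94 and -5.78. A probe of the intergenic lncRNA 2610017I09Rik differed by -5.60 ± 0.33, and another probe of it by -2.83.

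For several of the kidney transcripts liver gave a measured level. AK045573 (chromosome 6, 54700657 to 54703850) read 5.94, 5.92 and 5.87 in kidney and 0.66, 0.61 and 0.71 in liver, 38.0-fold higher with all 6 arrays well above background. BC026208 and Gm14772 were 45.2-fold and 27.1-fold higher, both detected on all arrays. The pseudogenes Gm12846 (in an intron of Inadl) and Gm15470 read 8.52, 8.50 and 6.87 and 7.31, 8.08 and 6.37 in kidney, Kidney replicate 3 lowest in both, and were 34.8-fold and 31.4-fold higher than in liver. AK008716 and Gm6024 differed by -4.89 and -4.86 and were undetected in liver.

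The liver side outside the lists was led by a transcript of Mbd3, a subunit of the NuRD chromatin complex (ENSMUST00000125618, exonic sense, chromosome 10, 80393895 to 80395326). It read 10.83, 10.33 and 10.14 in liver and 4.29, 4.19 and 4.02 in kidney, 76.8-fold higher with all 6 arrays well above background (adjusted p = 1.83e-06). Brain, at 6.60, came next to liver and testis was at 3.30.

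Most of the others with large differences shared a feature of the probe itself. The annotation gives the 60-letter sequence of 1817 named probes, and 12 of them (0.66%) hold a stretch of at least 12 letters in which G and T alternate (GTGTGTGTGTGT or the same begun with T). Of these 12, 11 were called higher in liver and none higher in kidney, while 34 of all 1817 (1.87%) were called higher in liver. The mirror stretch, at least 12 alternating letters of A and C (ACACACACACAC, the same repeat read on the other strand), is in 5 probes (0.275%), and all 5 were called higher in kidney, against 78 of 1817 (4.29%). This feature was looked for after the values were seen, on the same calls, and was given no test. The 12 GT probes lie on 10 chromosomes and the 5 AC probes on 5. The 9 probes below are shown because the stretch recurs in otherwise unlike probes, and capitals mark the longest alternating stretch.
humanlincRNA0559: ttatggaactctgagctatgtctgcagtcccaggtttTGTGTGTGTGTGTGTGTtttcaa
XLOC_023801: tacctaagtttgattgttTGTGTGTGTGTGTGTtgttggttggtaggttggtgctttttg
9330020H09Rik: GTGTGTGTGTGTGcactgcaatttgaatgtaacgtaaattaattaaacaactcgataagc
XLOC_027217: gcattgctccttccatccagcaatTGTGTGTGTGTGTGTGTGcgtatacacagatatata
AK089639: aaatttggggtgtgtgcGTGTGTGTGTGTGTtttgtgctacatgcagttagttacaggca
Gm6548: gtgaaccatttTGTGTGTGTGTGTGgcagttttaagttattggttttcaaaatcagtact
XLOC_021497: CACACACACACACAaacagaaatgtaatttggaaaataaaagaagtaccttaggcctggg
AK019605: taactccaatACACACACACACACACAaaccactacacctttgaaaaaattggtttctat
AK134360: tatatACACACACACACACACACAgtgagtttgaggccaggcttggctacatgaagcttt

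The first of these, the intergenic humanlincRNA0559 (chromosome 14, 56714686 to 56715350), read 10.69, 9.98 and 10.83 in liver and 4.46, 4.86 and 5.17 in kidney, 50.9-fold higher (adjusted p = 8.14e-06). XLOC_023801, beside Med26 on chromosome 8, and 9330020H09Rik, antisense to Ccnt1 on chromosome 15, were 48.6-fold and 27.7-fold higher. XLOC_027217, an intergenic transcript of the X chromosome, read 10.70, 10.45 and 11.19 in liver and 5.60, 6.10 and 6.29 in kidney. Probes for transcripts of coding genes showed the same. That of Cyp51, the lanosterol demethylase of cholesterol synthesis, was 48.0-fold higher in liver, that of Prps1, which makes the activated ribose of nucleotides, 43.9-fold, and that of the arginine methyltransferase gene Prmt6 30.3-fold. AK089870, antisense to Tgfa, and the intergenic AK089639 were 26.8-fold and 18.4-fold higher. Gm6548 was the exception, at 8.54, 9.74 and 9.79 in liver and 7.62, 8.16 and 7.85 in kidney, a difference of 1.48 ± 0.38 that missed the 5-fold threshold. A pair of further probes among the 12 largest, AK015268 (4.47 ± 0.68) and Atrn (4.44 ± 0.49), hold shorter GT stretches. With stretches of at least 10 letters, 14 of 16 probes were called higher in liver, so that 14 of the 34 liver calls outside the lists carried one. With fewer than 10, 20 of 1801 (1.11%) were.

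Among the 5 probes with an AC stretch, XLOC_021497 read 2.31, 2.73 and 2.48 in kidney and -3.27, 0.13 and -1.25 in liver. AK134360 read 4.23, 4.52 and 4.23 in kidney and -0.34, 1.71 and 0.51 in liver. 4930451C15Rik, AK019605 and AK132839 differed by -4.18, -3.72 and -2.93. Liver replicate 1 gave the lowest of the 3 liver values for each of these 5, and without it the median difference was -3.07 in place of -3.72, with all 5 still called. With AC stretches of at least 10 letters, 6 of 9 probes were called higher in kidney. Of the 4 probes with 10 or 11 letters 1 was called, and their median difference was 0.13. With fewer than 10, 72 of 1808 (3.98%) were called higher in kidney.

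The levels of each set moved together over the study's other groups, which include F9 embryonal carcinoma cells and the germ cell-derived lines GC-1 and GC-2. Over the means of the 8 groups the 12 GT probes correlated with each other at a median of 0.992 (lowest 0.809, over 66 pairs), and the 5 AC probes at a median of 0.996 (lowest 0.985, over 10 pairs). These probes share sequence, so the correlations describe them and are not independent measurements. The median of the GT probes was 10.23 in liver, 7.07 in F9, 6.65 in GC-1, 6.60 in GC-2, 5.12 in kidney, 4.35 in heart, 3.28 in testis and 2.22 in brain. Liver was the highest of the 8 groups for 11 of the 12, Gm6548 again apart. The AC probes ran the other way, at 5.85 in brain, 4.73 in heart, 3.08 in kidney, 2.65 in testis, 1.28 to 1.64 in the cell lines and -0.64 in liver, with liver the lowest group for all 5. The annotation lists no other target for any of these 17 probes. Whether their signal comes from the named transcripts or from other RNA with the repeat was not tested.

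**Figure D3:**
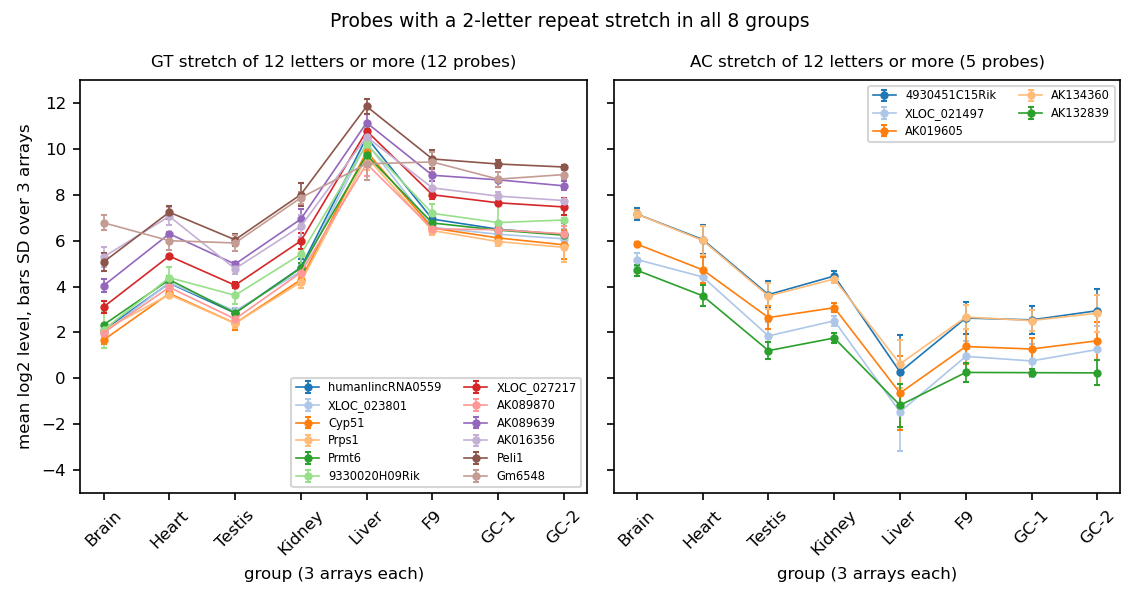
Mean log2 level (y axis, bars SD over 3 arrays) of each probe with a GT stretch (left, 12 probes) or an AC stretch (right, 5 probes) of at least 12 letters in the 8 groups of the study. On the left liver lies at 9.35 or above and is the highest group for all probes but Gm6548, and on the right it lies at 0.63 or below and is the lowest group for all 5; AK016356 departs from the other GT probes with heart (7.06) above kidney (6.63).

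Known noncoding RNAs of broad expression gave 1 call, and this count depended on the setting. It was 3 with normexp and 2 with scaling by the 50th percentile. With array weights or the methods' t-test after adjustment it was 0. Of 8 probes for 6 known noncoding RNAs, all were detected in both organs, 5 were lower in liver with an adjusted p of 0.05 or less, 1 was higher, and 1 was called. Among the probes detected in both organs, 22.1% were higher in liver and 17% higher in kidney at that p without a minimum fold. The 3 probes of Malat1, the abundant RNA of nuclear speckles, were all lower in liver, by 2.76 ± 0.70 (ENSMUST00000173499), 2.22 ± 0.34 (ENSMUST00000173523) and 2.04 ± 0.45 (ENSMUST00000172812). The first read 1.76, 4.31 and 4.76 in liver and 6.55, 6.04 and 6.54 in kidney. Its call rested on Liver replicate 1, and without that array the difference was -1.84 and no longer called. Neat1, the core RNA of paraspeckles, was at 4.86, 4.99 and 6.47 in liver and 7.95, 6.34 and 7.08 in kidney, with arrays that overlap (adjusted p = 0.0259). Tug1 differed by -1.03 ± 0.28, while Dancr (-0.12 ± 0.30, adjusted p = 0.761) and Rpph1, the RNA of RNase P (0.32 ± 0.27, adjusted p = 0.34), did not pass the test. The ribosomal RNA precursor Rn45s was at 12.89, 13.44 and 12.99 in liver and 12.03, 12.06 and 12.08 in kidney, a difference of 1.05 ± 0.25 that turned to -0.24 under quantile normalization.

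Among the snoRNA host transcripts, those of Gas5 and Snhg6 read higher in liver by less than the threshold for a call. Of 14 probes, 11 were detected in both organs and 8 of these were higher in liver with an adjusted p of 0.05 or less, with a median of 0.82 over the 11 against 0.08 over all probes detected in both. Most of the 11 are probes of Gas5, so this count and this median weigh 1 gene many times. Over all 14 the median of 0.88 fell to 0.51 under quantile normalization and 0.32 with normexp. Gas5, the growth-arrest transcript whose introns hold snoRNAs, has 9 probes, of which 8 were detected and differed by 0.68 to 1.26. Of the 11 detected probes 3 did not pass the test, a Gas5 probe among them. The Gas5 probe ENSMUST00000159663 was at 8.80, 8.61 and 8.24 in liver and 7.69, 7.45 and 7.64 in kidney (adjusted p = 0.0123), and ENSMUST00000160429 at 7.18, 7.34 and 6.95 and 5.77, 5.83 and 6.09 (adjusted p = 0.00267). Of the 8, all but ENSMUST00000160152 list further target transcripts, so they are not independent. Snhg6 was higher in liver by 1.59 ± 0.35, and Snhg1 (0.14 ± 0.57) and Taf1d (0.23 ± 0.38) did not pass the test. Single probes of Snhg3 and Snhg11 were detected on no array of either organ and are not read.

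Imprinted lncRNAs, which are expressed from the allele of 1 parent, were mixed. Of 14 probes for 6 genes, 6 were detected in both organs. H19 was at 10.42, 11.92 and 11.67 in liver and 8.87, 10.00 and 10.09 in kidney (1.68 ± 0.48, adjusted p = 0.0165). Peg13 was lower in liver, at 2.63, 2.56 and 2.54 against 3.93, 4.37 and 4.48. The Meg3 probe ENSMUST00000150851 was at 7.42, 7.96 and 7.44 in liver and 7.02, 6.41 and 6.50 in kidney (adjusted p = 0.0201). A second Meg3 probe detected in both (0.57 ± 0.25) missed the test, as did Kcnq1ot1 (0.06 ± 0.27, which read -0.51 with normexp) and Nespos (-0.52 ± 0.24). The other 8 probes, those of Airn included, were not detected on all 3 arrays of either organ, and their differences are not read.

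**Figure D4:**
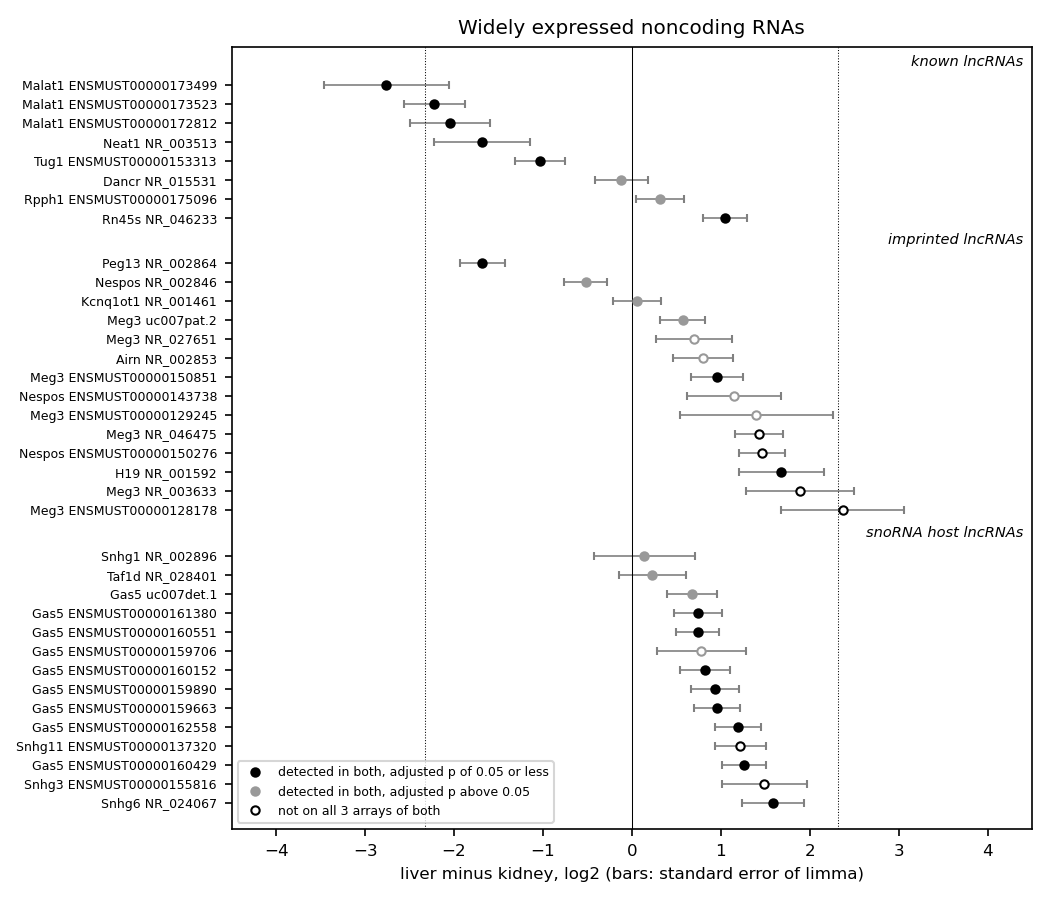
Liver minus kidney difference (x axis, log2, bars SE of the fit) of the probes for known, imprinted and snoRNA host lncRNAs, with filled points for probes detected on all 3 arrays of both organs, grey for an adjusted p above 0.05 and dotted lines at a 5-fold difference. The 3 Malat1 probes lie left of 0 and the 8 detected Gas5 probes right of 0, and 1 filled point, Malat1 ENSMUST00000173499, lies beyond a dotted line.

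Pseudogenes of ribosomal proteins gave no call. All 46 probes were detected in both, none passed an adjusted p of 0.05, and their differences ran from -1.07 to 0.55 with a median of 0.17. For lncRNAs of mitochondrial respiration and the citrate cycle, 18 probes were detected in both, 4 were higher and 6 lower in liver at that p, where 22.1% and 17% of all such probes were, and none was called (-1.71 to 1.56). Glutathione genes held a call in each direction. The transcript of Gss, glutathione synthetase, was at 9.32, 9.20 and 8.85 in kidney and 7.08, 6.53 and 6.77 in liver, 5.04-fold higher in kidney. This lies close to the 5-fold threshold, and the kidney call of this list was lost without Kidney replicate 1, Kidney replicate 2, Liver replicate 2 or Liver replicate 3, each left out alone. AK208069, in the gene Gsto1 of glutathione transfer, was at 8.48, 8.28 and 8.22 in liver and 5.17, 5.53 and 5.99 in kidney, 6.79-fold higher in liver, and with normexp it was not called.

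LncRNAs in or beside genes typical of an organ were counted next. Among all 15469 probes detected in both organs, 836 were called higher in liver and 458 higher in kidney. Of 19 probes in or beside hepatic genes, all detected in both organs, 1 was called higher in liver, the Cyp51 transcript with the GT stretch. Another 5 were higher with an adjusted p of 0.05 or less, such as Kng1, the kininogen gene, at 8.19, 7.28 and 7.11 in liver and 6.17, 5.96 and 5.55 in kidney, and 1 was called higher in kidney. This was Gm15502, in an intron of Cyp3a13, at 5.28, 6.03 and 5.56 in kidney and 3.27, 3.06 and 3.31 in liver. Of 11 probes in or beside renal transporter genes, 1 was called higher in kidney, the transcript of Mrps6 at the inositol cotransporter gene Slc5a3 (5.87, 6.03 and 5.93 in kidney, 3.43, 3.47 and 3.06 in liver), and none higher in liver. H2-K2, a pseudogene of the class I antigen genes, was called higher in liver (3.45 ± 1.00, adjusted p = 0.0175), but its arrays overlapped, at 7.94, 9.11 and 6.52 in liver and 2.96, 3.54 and 6.73 in kidney. It was not called under quantile normalization, by the methods' t-test before or after adjustment, or with replicates 2 and 3 of both organs alone.

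By position, the named probes with an annotated relation to coding genes gave 34 liver calls (1.63%) and 78 kidney calls (3.75%) of 2082. Exonic sense transcripts had 15 liver (3.2%) and 23 kidney calls (4.9%) of 469, and intergenic transcripts 11 (0.943%) and 38 (3.26%) of 1167. Exonic antisense transcripts had 5 and 6 of 106, intronic antisense transcripts 2 and 5 of 195, intronic sense transcripts 0 and 5 of 96, and bidirectional transcripts 1 and 1 of 49. The differences between the classes were not tested, and the shares hold for the annotated probes and not for the whole array.

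Leaving out Liver replicate 1 raised the number of liver calls to 1816 from 1571. Both fits shared 1535 of these, and 228 of the 281 gained were probes below the flag on that array alone. The kidney calls were 2086 against 2068, with 1950 shared. Of the 239 named calls, 229 were called again and the difference moved by a median of 0.15.

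**Figure D5:**
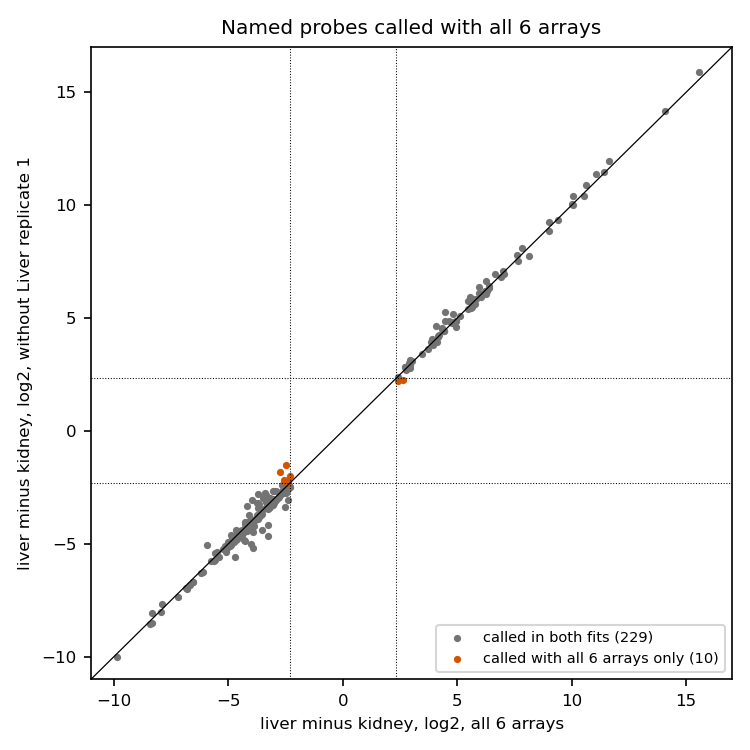
Liver minus kidney difference of the 239 named probes called with all 6 arrays (x axis, log2) against the difference without Liver replicate 1 (y axis, log2); the solid line marks equal values and the dotted lines a 5-fold difference. Points follow the line, and the 10 that lost their call lie between the dotted lines on the y axis.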

How the data were processed

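The deposited files are Feature Extraction output of 1-colour Cy3 arrays (Arraystar mouse lncRNA array V3.0). The authors deposited background-subtracted intensity values per probe with flags for detection. Levels are log2 intensity minus the log2 of the array's 75th percentile over the 60804 transcript probes. Groups and replicate numbers came from the labels. Liver was compared with kidney with limma 3.58.1 in R 4.3.3 (lmFit and eBayes, Benjamini-Hochberg adjustment over all probes, two-sided) on 6 arrays, and no probe was left out of the fit. Nothing beyond the methods shows that replicates came from separate animals, so p-values measure the spread between these samples. The number of arrays limits the precision.

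Where the lower organ had no array well above background, a fold is a bound ("at least"): the mean of the higher organ against, per array of the lower organ, the higher of the probe's own signal and the lowest signal counted as well above background. Names came from the study's annotation tables, and 57348 probes stayed unnamed. Positions are on GRCm38, those of transcripts from the annotation and those of genes from RefSeq by symbol. The authors' own fold changes and p-values in those tables were not used. The text names the 10 largest calls of each study list, all members of the function groups but 1 that is counted and otherwise not reported here, the 12 largest calls toward each organ outside the lists with arrays apart, all members of the known, imprinted and snoRNA host lists, called members of the other lists and at most 2 unnamed probes a direction; lymphocyte, red cell, Ldha, Kng1 and repeat-stretch probes were chosen after their values were seen. Members and lists were chosen with earlier results of these data known.

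The normexp alternative used the median spot signal, since the mean signal planned for it is not in the files used here. The methods name Student's t-test at a fold of 5, which was run as an alternative. The fit was tested on simulated data for this comparison: of 200 probes changed by 3.5 (log2) among 60804, 171 were recovered with 10 false calls. Figures were drawn with matplotlib 3.10.9.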

Additional observations from a re-analysis of the deposited data

How the results depend on the processing

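The counts of 1571 probes higher in liver and 2068 higher in kidney (81 and 158 named) stayed within 1.5 times of these values under other percentiles, quantile normalization, the second detection flag, a filter on dim probes, the fit on 15 arrays, the slide as a block, array weights and the methods' t-test (1549 and 2012 after adjustment, 1564 and 2047 at the unadjusted threshold). The array weights, 0.246 to 10, did not converge. With normexp, whose offset shrinks the fold of dim probes, the counts were 779 and 877 (46 and 86 named). A fold of at least 2 gave 3475 and 5503 (209 and 338 named), and no minimum fold 4224 and 6535 (291 and 413 named). With no flag asked, an alternative chosen after seeing the data, 2809 were higher in liver. With 1 common detection level, 1894 probes were in liver alone and 3296 in kidney alone. Leaving out 1 array at a time gave 1580 to 1816 liver and 2041 to 2139 kidney calls (80 to 87 and 150 to 166 named). Detected probes then ran from 16277 to 18686 in liver, 24044 to 25060 in kidney, 15503 to 17475 in both, 739 to 1211 in liver alone and 6569 to 9522 in kidney alone. Of 2167 comparisons of 121 named probes with their alternatives, 2035 kept direction and side of a threshold, which here is not the call. Another 96 no longer passed, 34 newly passed and 2 reversed. The 2 were Rn45s, -0.24 under quantile normalization (adjusted p = 0.0981), and Kcnq1ot1, -0.51 with normexp (adjusted p = 0.0332). Calls were less stable than this tally. With normexp it counts 7 of the 121 as no longer passing. Of the function groups, 13 of the 21 liver and 3 of the 14 kidney probes stayed called there. Many of the 121 were chosen for large differences. The causes were not tested.

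Same-numbered arrays of the 2 organs did not deviate together (correlation of deviations from the group mean -0.068, -0.069 and -0.065 over all probes), so the numbers were not taken as pairs. With the replicate block, 1573 and 2074 probes were called. The background limits both study lists, since kidney had no array well above it for 43 of the 47 liver probes and liver none for 86 of the 102 kidney probes.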
